A study of Homo sapiens with 12 samples.

Results

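The BCL2 family genes followed here were 10 in number, BCL2, BCL2L1, MCL1, BCL2A1, BAX, BAK1, BID, BIK, PMAIP1 and BCL2L11, taken by symbol from the 58735 genes of a table of FPKM (fragments scaled by gene length and by library size) in NCM460 cells, a human epithelial cell line labelled as normal colonic. There were 12 libraries of poly(A) RNA, which fell into 4 groups of 3. Wild-type cells were kept in medium, treated with TNF-α, or treated with TNF-α together with 5-OH-TMT. This indole compound is named Bufotenidine in the labels. The study made it by synthesis as a derivative of bufotenine, a compound of toad secretions. In the remaining group HTRA2, a mitochondrial serine protease, was knocked down by siRNA in cells that also received TNF-α, so every group but medium carried TNF-α. The labels give no dose and no time. The study describes its sequencing of the knockdown as set against a control siRNA, whereas the labels give the TNF-α libraries as wild type and name no siRNA for them. Whether those libraries were transfected is therefore not settled here. If they were not, transfection and the lowering of HTRA2 cannot be told apart in the knockdown against TNF-α. The same holds for the knockdown against 5-OH-TMT if the 5-OH-TMT libraries, for which the labels name no siRNA, were not transfected. If the TNF-α libraries alone of the wild-type groups were transfected, transfection cannot be told apart from TNF-α or from 5-OH-TMT in the comparisons with them. Whether the knockdown libraries came from 1 siRNA or from 3 is not given in the sources used here, nor is it stated that the 3 libraries of a group were separate cultures, and the p-values measure the spread between these libraries only.

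The BCL2 family sets whether the outer mitochondrial membrane stays intact. Survival proteins such as BCL2, BCL-XL (from BCL2L1), MCL1 and BFL1 (from BCL2A1) hold the pore formers BAX and BAK in check, and BH3-only proteins such as BID, BIK, NOXA (from PMAIP1) and BIM (from BCL2L11) bind the survival proteins or activate the pore formers. Once pores open, cytochrome c and proteins such as HTRA2 itself leave the mitochondria and caspases are activated. In epithelium exposed to TNF-α, NF-κB is known to raise several survival genes, while cleavage of BID by caspase-8 links death receptors to the mitochondria.

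HTRA2 was measured at 7.44, 7.18 and 7.22 FPKM in knockdown libraries 1, 2 and 3. It averaged 14.5 ± 0.774 FPKM (SD, n = 3) after TNF-α, 14.8 ± 2.04 in medium and 15.3 ± 0.363 with 5-OH-TMT, so the labelled knockdown libraries lay below all others. The libraries held 31008429 to 37624399 reads on genes, recovered from the FPKM steps. Knockdown library 2 stood apart, with 2.95% of its reads on mitochondrial genes against 3.69% to 4.68% in the other libraries. The epithelial markers EPCAM, CDH1, KRT8, KRT18 and KRT19 were present in every library, whereas the 5 colonic markers CDX1, CDX2, VIL1, CDH17 and LGALS4 summed to at most 0.194 FPKM and CDX2 had 0 reads throughout, so the colonic label was not borne out by these markers. The 4 leukocyte markers, led by CD14, summed to 0.231 to 0.521 FPKM in medium, 0.0711 to 0.207 after TNF-α, 0.231 to 0.332 with 5-OH-TMT added and 0.324 to 0.740 in the knockdown, while PTPRC had at most 4 reads and CD3E had 0 reads in every library. The 5 fibroblast markers summed to 2.60 to 3.22 FPKM in the knockdown and 0.974 to 1.46 elsewhere, with 2 of them at 0 reads in all libraries and nearly all of the sum from COL1A1. The 4 endothelial markers, led by CDH5, summed to 0.491 to 0.597 FPKM in medium, 1.42 to 1.57 after TNF-α, 1.77 to 2.01 with 5-OH-TMT added and 2.21 to 3.62 in the knockdown. Their part in the results below was not tested, and in bulk RNA fewer cells of a type and less RNA per cell cannot be told apart.

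Per gene length and averaged over all 12 libraries, MCL1 and BCL2L1 were the highest of the 10 genes and BCL2 the lowest, but the order differed between groups. In medium BCL2A1, at 0, lay below BCL2 in all 3 libraries, and in the knockdown the mean of BAK1 (43.8 FPKM) stood above that of BCL2L1 (40.3). The means over the 12 libraries were 70.8 FPKM for MCL1, 44.4 for BCL2L1, 37.8 for BAK1, 31.1 for BIK, 28.8 for BID, 23.4 for BAX, 10.9 for PMAIP1, 1.65 for BCL2L11, 0.778 for BCL2A1 and 0.0573 for BCL2. MCL1 stood at the 96.7th percentile of the 18079 genes that passed a filter at a mean of 0.1 FPKM, and BCL2A1 at the 34.3rd. BCL2 was the 1 member under that filter, with 12 to 45 reads per library. In medium the libraries of MCL1 and BCL2L1 overlapped, as did those of BAX with BIK and of BIK with BID. With TNF-α, MCL1 lay above BCL2L1 in every library, whereas BAK1, BIK and BID formed a run of overlapping neighbours. In the knockdown, MCL1 lay above all other members, and BAK1, BCL2L1, BIK and BID were neighbours that overlapped in turn, followed by BAX clearly below them.

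**Figure D1:**
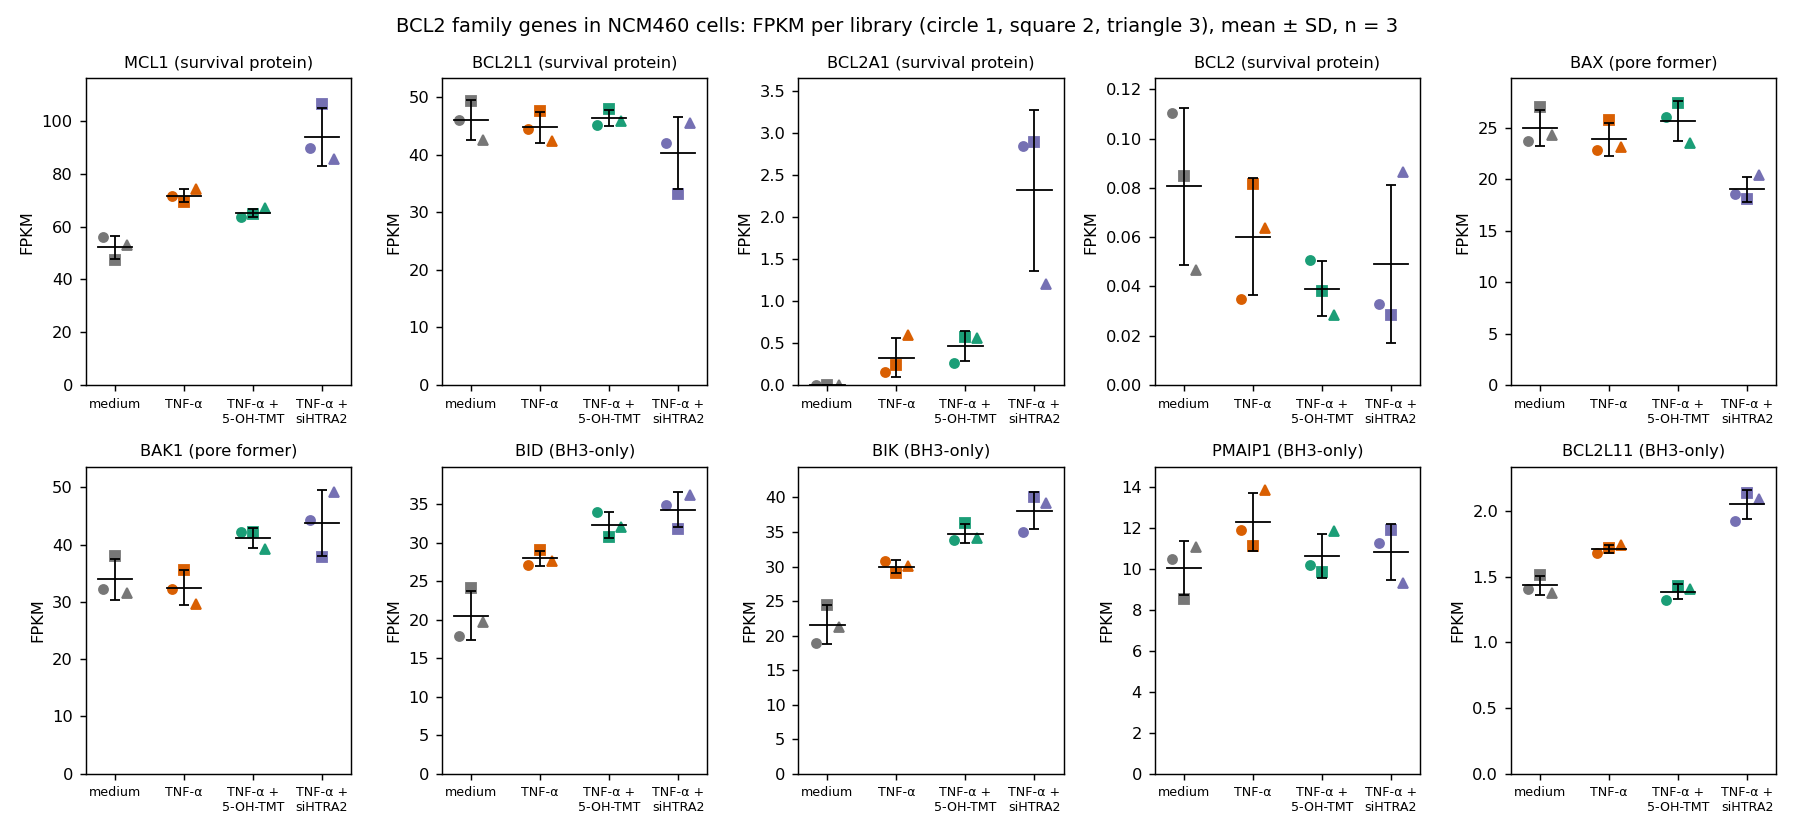
FPKM of the 10 BCL2 family genes on the y axis in each of the 4 groups on the x axis. Points are single libraries (circle 1, square 2, triangle 3), and the black lines give the mean ± SD (n = 3). MCL1 rises from 47.2 to 56.1 FPKM in medium to 85.7 to 107 in the knockdown, BCL2A1 starts from 0 in medium, and BAX is lowest in the knockdown.

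Among the survival genes, MCL1 (ENSG00000143384, chromosome 1 from 150574551 to 150579738, minus strand in GRCh38), whose protein is short-lived, was measured at 56.1, 47.2 and 53.0 FPKM in medium libraries 1, 2 and 3. It was at 71.5, 69.4 and 74.4 FPKM with TNF-α and at 63.8, 64.9 and 66.9 with 5-OH-TMT added. It reached 89.7, 107 and 85.7 FPKM in the knockdown, the highest of these in library 2. No library of any group overlapped with those of another, in the order medium, 5-OH-TMT, TNF-α and knockdown. The FPKM count all reads of a gene, so the long MCL1 form that protects cells and the short form that does not are not separated, and neither are the splice forms of BCL2L1 and BCL2L11.

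BCL2L1 (ENSG00000171552, chromosome 20 from 31664452 to 31723989, minus strand), the source of BCL-XL, varied less. It lay at 42.6 to 49.4 FPKM in medium, 42.3 to 47.7 after TNF-α, 45.2 to 47.9 with 5-OH-TMT added and 42.1, 33.3 and 45.4 in knockdown libraries 1, 2 and 3. Only knockdown library 2, the library with the low mitochondrial share, fell outside the range of the rest. ABALON, an antisense RNA with 22 to 123 reads per library, shares 1424 exonic bases with BCL2L1, and whether the counting used strand is not given in the sources used here.

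BCL2A1 (ENSG00000140379, chromosome 15 from 79960889 to 79971446, minus strand), a survival gene known as an NF-κB target, had 0 reads in all 3 medium libraries, which allows up to 3 reads in each. With TNF-α it had 6, 8 and 24 reads in libraries 1, 2 and 3 (0.150, 0.236 and 0.591 FPKM), and with 5-OH-TMT added it had 10, 22 and 22 (0.261, 0.569 and 0.562 FPKM). In the knockdown it had 112, 114 and 48 reads (2.85, 2.90 and 1.21 FPKM). The TNF-α and 5-OH-TMT libraries overlapped, and all 3 knockdown libraries lay above both. BCL2A1 was the one member whose RefSeq promoter window held GAAA, any 2 bases and GAAA again, the letters of the core of interferon-response elements, on either strand. The window runs from 250 bases before to 50 bases after each RefSeq start (GRCh38.p14), and 3.57% of all 35116 windows held the motif. It is shown because BCL2A1 moved more than the other members. The 30 bases at chr15:79971310-79971339 on the minus strand, within exon 1 of the longer GENCODE transcript and upstream of the RefSeq start, read as follows, with capitals for the match, which is the reverse complement of the motif.
BCL2A1 promoter: cattttaaacTTTCTCTTTCatacatgaca
A κB motif was found in 0 of the 13 windows of the 8 members in the table and in 5.91% of all windows. These windows are few, short and in part overlapping, so the count cannot tell the members from other genes. MCL1 and BIK had no window there. A match is a run of letters and was not tested for binding.

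BCL2 (ENSG00000171791, chromosome 18 from 63123346 to 63320128, minus strand) had 18 to 45 reads in medium, 15 to 30 after TNF-α, 12 to 21 with 5-OH-TMT added and 12 to 37 in the knockdown. Its libraries overlapped between all 4 groups, at 0.0283 to 0.110 FPKM.

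Of the pore formers, BAX (ENSG00000087088, chromosome 19 from 48954815 to 48961798, plus strand) was measured at 23.7, 27.0 and 24.3 FPKM in medium and at 22.8, 25.8 and 23.1 with TNF-α. It was at 26.1, 27.4 and 23.6 FPKM with 5-OH-TMT and at 18.5, 18.1 and 20.4 in the knockdown. The first 3 groups overlapped, and the knockdown libraries lay below every one of the other 9. BAX was the one member called lower in any comparison, and its promoter is shown for that reason. Its window held 4 copies of CACGTG, a palindrome that reads alike on both strands, at -138, -93, -45 and -14 from the RefSeq start. The motif was found in 7.26% of all windows and at least 4 copies in 0.0142%. Among the other members it was found once in each of 2 overlapping windows of BID, and it was chosen after the sequences had been read. The 190 bases at chr19:48954625-48954814 on the plus strand lie upstream of every GENCODE transcript of BAX and overlap no annotated exon. The capitals mark CACGTG at -138 and -93, and the copies at -45 and -14 lie past the 3′ end of this stretch and are not printed.
BAX promoter: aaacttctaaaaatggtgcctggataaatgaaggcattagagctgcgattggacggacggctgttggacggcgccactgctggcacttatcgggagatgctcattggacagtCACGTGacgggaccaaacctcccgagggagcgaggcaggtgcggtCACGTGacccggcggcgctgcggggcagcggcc

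BAK1 (ENSG00000030110, chromosome 6 from 33572547 to 33580293, minus strand), the pore former that resides in the mitochondrial membrane, was measured at 32.3, 38.0 and 31.6 FPKM in medium and at 32.2, 35.6 and 29.6 with TNF-α. It was at 42.2, 42.2 and 39.2 FPKM with 5-OH-TMT and at 44.3, 37.8 and 49.2 in the knockdown. Medium and TNF-α overlapped, and every library of both other groups lay above the TNF-α libraries. Reads of its pseudogene BAK1P1 numbered 21 to 40 per library against 2280 to 3968 for BAK1.

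Among the BH3-only genes, BID (ENSG00000015475, chromosome 22 from 17734138 to 17774770, minus strand), the target of caspase-8, was measured at 17.8, 24.1 and 19.7 FPKM in medium and at 27.2, 29.1 and 27.6 with TNF-α. It was at 34.0, 30.7 and 32.0 FPKM with 5-OH-TMT and at 34.9, 31.8 and 36.3 in the knockdown. All 9 TNF-α-treated libraries lay above the medium libraries, and both added treatments lay above TNF-α alone.

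BIK (ENSG00000100290, chromosome 22 from 43110748 to 43129712, plus strand), a BH3-only protein of the endoplasmic reticulum, had the same order of groups. It was at 18.9, 24.5 and 21.3 FPKM in medium and at 30.8, 29.05 and 30.1 with TNF-α. It was at 33.8, 36.4 and 34.1 FPKM with 5-OH-TMT and at 35.0, 40.1 and 39.2 in the knockdown, where library 1 lay within the range of the 5-OH-TMT libraries.

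PMAIP1 (ENSG00000141682, chromosome 18 from 59899948 to 59904306, plus strand), which encodes the MCL1-binding NOXA, was at 10.49, 8.55 and 11.1 FPKM in medium and at 11.9, 11.1 and 13.9 with TNF-α. It was at 10.2, 9.86 and 11.9 FPKM with 5-OH-TMT and at 11.3, 11.9 and 9.29 in the knockdown. The 3 groups with TNF-α overlapped. BCL2L11 (ENSG00000153094, chromosome 2 from 111119378 to 111168447, plus strand), the source of BIM, was lower, at 1.41, 1.51 and 1.38 FPKM in medium and at 1.68, 1.72 and 1.74 with TNF-α. It was at 1.32, 1.43 and 1.41 FPKM with 5-OH-TMT, within or below the medium range, and at 1.93, 2.14 and 2.09 in the knockdown, above all other libraries. The lincRNA MIR4435-2HG, on the opposite strand, shares 727 exonic bases with BCL2L11 and had 807 to 1498 reads against 300 to 513 for BCL2L11, so without strand the reads of the shared bases cannot be told apart.

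The first comparison sets TNF-α against medium in cells labelled wild type. MCL1, BIK, BID and BCL2A1 were higher with TNF-α than in medium, while BCL2L1, BAX and BAK1 did not pass the test. The mean FPKM of MCL1 was 71.8 ± 2.54 (SD, n = 3) against 52.1 ± 4.51, a log2 fold change of 0.46 with a standard error of 0.086 on log2(FPKM + 0.1). The limma fit to the 18079 genes over all 12 libraries gave it a Benjamini-Hochberg adjusted p of 0.00804. BIK rose 1.39-fold from 21.6 ± 2.81 FPKM in medium (log2 fold change 0.48, limma adjusted p = 0.00749), and BID from 20.5 ± 3.23 to 28.0 ± 0.995 (0.45, limma adjusted p = 0.0210). BCL2A1 was at least 3.91-fold higher than a floor of 3 reads per medium library (limma adjusted p = 0.0189), and this bound was 2.32 without TNF-α library 3, the library with 24 reads. PMAIP1 (log2 fold change 0.29, limma adjusted p = 0.302) and BCL2L11 (0.24, limma adjusted p = 0.230) had every TNF-α library above every medium library without passing. For PMAIP1 the margin was narrow, with 11.109 FPKM in TNF-α library 2 against 11.095 in medium library 3. The 95% intervals of the log2 change were -0.26 to 0.19 for BCL2L1, -0.24 to 0.11 for BAX and -0.29 to 0.17 for BAK1.

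Thus 4 of the 9 tested members were called higher with TNF-α and 0 lower, against 3.22% of all tested genes called higher and 0.885% lower. The threshold of the study's methods (2-fold or more, p at or below 0.05 before adjustment) was met by BCL2A1 alone, against 2.73% of all genes. All TNF-α libraries lay above all medium libraries for 6 members, against 11.1% of all genes, and the exact permutation test of 3 libraries against 3 cannot give these a p below 0.1. The median log2 fold change was 0.29 for the 9 members and -0.0020 for all genes, and BCL2A1 at its lower bound left the former at 0.29. BCL2A1 passed the filter on low values through the TNF-α-treated groups, since it was at 0 in medium, so the counts over tested members describe them and support nothing. MCL1 and BIK were called whichever library was left out, whereas BID missed the threshold without medium library 1 or 3 or any 1 TNF-α library (limma adjusted p 0.0563 to 0.0893) and with eBayes without the trend (0.0619), and BCL2A1 without any 1 medium library or TNF-α library 3 (0.0552 to 0.0768). When only the 2 groups compared were fitted, MCL1 alone was called, with limma adjusted p-values of 0.0764 for BIK, 0.0825 for BCL2A1 and 0.136 for BID, and BCL2A1 was also lost with a pseudocount of 1 (0.407), with no filter on low values (0.0588) and with voom on the recovered reads (0.0614).

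The second comparison asks what 5-OH-TMT added to TNF-α, and no member was called in either direction. BAK1 was at 41.2 ± 1.72 FPKM (SD, n = 3) with 5-OH-TMT and 32.5 ± 3.03 with TNF-α alone, a log2 difference of 0.34 with a 95% interval of 0.12 to 0.57 and a limma adjusted p of 0.126. BIK differed by 0.21 on the log2 scale (interval 0.018 to 0.40, limma adjusted p = 0.215). BCL2L11 was at 1.39 ± 0.0556 FPKM against 1.71 ± 0.0313, a log2 difference of -0.29 (interval -0.49 to -0.081, limma adjusted p = 0.141). These 3 of the 9 tested members had an unadjusted p under 0.05, against 20.1% of all genes. For the other tested members the intervals covered 0, from -0.33 to 0.050 for MCL1 and from -0.42 to 1.40 for BCL2A1, so changes of these sizes could not be told from none.

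At an adjusted p under 0.05, limma called 0 of 9 members with 5-OH-TMT against 0.0332% of all genes higher and 0.00553% lower, which is 7 genes in all. Voom on the recovered reads also called 0 members. The 5-OH-TMT libraries all lay above the TNF-α libraries for BAK1, BID and BIK, 3 members against 16.3% of all genes, and all below them for MCL1 and BCL2L11, 2 members against 15.5%. The median log2 fold change was 0.10 for the members and 0 for all genes. A fit to only these 2 groups brought BIK (limma adjusted p = 0.0532) and BAK1 (0.0547) closest to the threshold.

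The third comparison asks how knockdown of HTRA2 in TNF-α-treated cells differed from TNF-α alone, and it shares its TNF-α libraries with the first and the second. MCL1, BCL2A1, BAK1 and BIK were higher in the knockdown and BAX was lower. BCL2A1 was at 2.32 ± 0.963 FPKM (SD, n = 3) against 0.326 ± 0.234, a 7.13-fold ratio of means (log2 fold change 2.55, standard error 0.417, limma adjusted p = 0.00145). Without TNF-α library 3 this ratio was 12.03. MCL1 was 1.31-fold higher, at 94.0 ± 11.1 FPKM (log2 fold change 0.38, limma adjusted p = 0.00948). BAK1 was at 43.8 ± 5.74 FPKM (log2 fold change 0.42, limma adjusted p = 0.0158) and BIK at 38.1 ± 2.68 (0.34, limma adjusted p = 0.0197). BAX was at 19.0 ± 1.22 FPKM against 23.9 ± 1.61 and fell by 0.33 on the log2 scale (limma adjusted p = 0.0161). BAX and BAK1, which serve the same step, thus moved in opposite directions. BID (log2 fold change 0.29, limma adjusted p = 0.0611) and BCL2L11 (0.25, limma adjusted p = 0.0971) lay above TNF-α alone in every library without passing. BCL2L1 had a log2 difference of -0.16 with an interval of -0.39 to 0.060, and PMAIP1 one of -0.18 with an interval of -0.46 to 0.094.

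In the knockdown 4 of the 9 tested members were called higher and 1 lower, against 9.35% of all genes higher and 8.08% lower. BCL2A1 alone met the study's threshold, against 4.23% of all genes. All knockdown libraries lay above all TNF-α libraries for 6 members, against 17.5% of all genes, and below them for BAX alone, against 16.4%. The median log2 fold change was 0.29 for the members and -0.0034 for all genes. Without knockdown library 2 again 5 members were called, with BID (limma adjusted p = 0.0440) in and BIK (0.0516) out. MCL1 and BCL2A1 were called whichever library was left out, whereas BAX missed the threshold without TNF-α library 2 (limma adjusted p = 0.0734) or knockdown library 1 (0.0618) and BIK also without TNF-α library 2 or 3 or knockdown library 3 (0.0517 to 0.0733). BAK1 missed it without TNF-α library 3 or knockdown library 1 or 3 (0.0578 to 0.0657) and in a fit to the 2 groups alone (0.0635).

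The knockdown was also set directly against 5-OH-TMT, the compound that the study tests as a ligand of HTRA2, both with TNF-α. If the 5-OH-TMT libraries were not transfected, differences here cannot be told apart from those of transfection. MCL1 (log2 difference 0.52, standard error 0.086, limma adjusted p = 0.00247), BCL2A1 (2.06, standard error 0.417, limma adjusted p = 0.00740) and BCL2L11 (0.53, standard error 0.0945, limma adjusted p = 0.00366) were higher in the knockdown. BAX was lower, by -0.43 on the log2 scale (standard error 0.0814, limma adjusted p = 0.00528). BCL2L11 stood 1.48-fold higher in the knockdown than with 5-OH-TMT, having been above TNF-α alone in the one and below it in the other. BAK1, BID and BIK, which lay above TNF-α alone in both, did not pass between the 2 treatments, with 95% intervals of -0.15 to 0.31 for BAK1, -0.13 to 0.30 for BID and -0.063 to 0.32 for BIK. The 3 members called higher stand beside 7.85% of all genes called higher, and the 1 called lower beside 7.43%. All 4 calls held whichever library was left out.

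**Figure D2:**
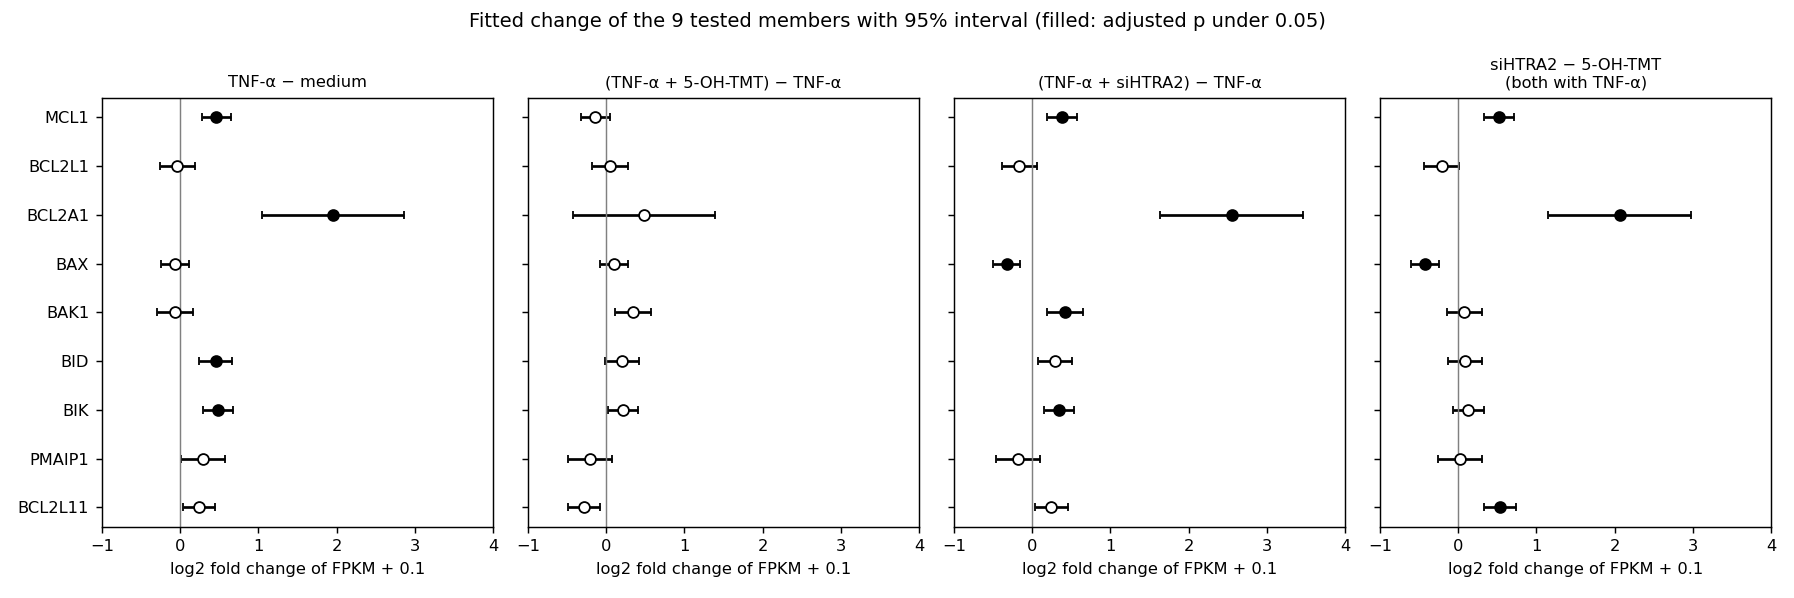
Fitted log2 fold change of FPKM + 0.1 on the x axis for the 9 tested members on the y axis, 1 panel per comparison, with 95% intervals; filled points passed an adjusted p of 0.05 in limma. MCL1 and BCL2A1 are filled in 3 of the 4 panels, BAX lies left of 0 in the 2 knockdown panels, and no point is filled for 5-OH-TMT against TNF-α.

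Because the members act against one another, their levels per length were also set in proportion within each library, as a description without a test. The ratio of MCL1 to BCL2L1 was 1.14 ± 0.159 (SD, n = 3) in medium, 1.61 ± 0.152 after TNF-α, 1.41 ± 0.0514 with 5-OH-TMT added and 2.41 ± 0.702 in the knockdown, where libraries 1, 2 and 3 gave 2.13, 3.20 and 1.89. MCL1 made up 53.0% of the summed FPKM of the 4 survival genes in medium and 68.7% in the knockdown. The ratio of BAK1 to BAX was 1.35 ± 0.0552 in medium and 1.36 ± 0.0690 with TNF-α. It was 1.61 ± 0.0634 with 5-OH-TMT and stood at 2.29 ± 0.183 in the knockdown, and the libraries of these groups overlapped with those of no other. The summed FPKM of the 4 BH3-only genes was 53.6 ± 5.03 in medium, 72.0 ± 1.25 after TNF-α, 79.0 ± 0.572 with 5-OH-TMT added and 85.3 ± 1.93 in the knockdown. The summed survival genes were 98.2 ± 3.58, 117 ± 0.778, 112 ± 2.36 and 137 ± 5.47 FPKM in the same order. Their quotient, BH3-only over survival, was 0.547 ± 0.0664 in medium, 0.615 ± 0.0102 after TNF-α, 0.706 ± 0.0180 with 5-OH-TMT added and 0.625 ± 0.0279 in the knockdown, so the 5-OH-TMT libraries lay above all others. These sums hold the members only. Further family genes were left out, such as BCL2L2, a survival gene at 17.8 FPKM in medium and 19.2 in the knockdown. The BH3-only gene BAD, at 15.7 in medium and 12.2 in the knockdown, was left out too. So was the BH3-only gene BBC3, at 2.14 FPKM in medium, 4.69 after TNF-α, 6.63 with 5-OH-TMT added and 10.7 in the knockdown. RNA levels per length do not give amounts of protein, and the activity of BID, BIM and MCL1 depends largely on cleavage, splicing and turnover of the protein.

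**Figure D3:**
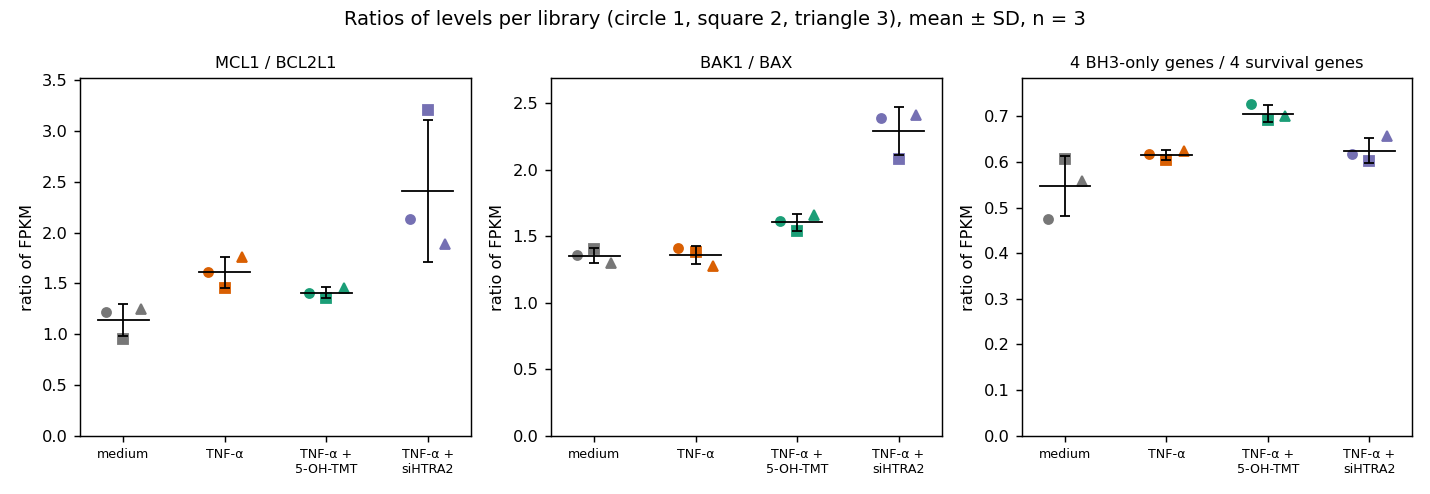
Ratios of FPKM on the y axis within each library for MCL1 to BCL2L1, BAK1 to BAX, and the summed BH3-only to the summed survival genes, in the 4 groups on the x axis (points are libraries, lines the mean ± SD, n = 3). BAK1 to BAX climbs from 1.36 with TNF-α to 2.29 in the knockdown, and knockdown library 2 has the highest MCL1 to BCL2L1 ratio, at 3.20.

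The genes around the members were read from 4 lists. Of 13 further genes of the BCL2 family, 10 were tested, and BBC3, which encodes the BH3-only protein PUMA, was the 1 called higher with TNF-α (against 3.22% of all genes). BBC3 averaged 2.14 ± 0.412 FPKM (SD, n = 3) in medium, with a highest value of 2.60, and was at 4.63, 4.65 and 4.79 after TNF-α, 6.61, 5.49 and 7.80 with 5-OH-TMT added and 12.8, 8.75 and 10.7 in the knockdown. These groups did not overlap. Its log2 fold change was 1.11 with TNF-α (limma adjusted p = 0.00157), 1.16 in the knockdown against TNF-α (limma adjusted p = 0.000550) and 0.68 against 5-OH-TMT (limma adjusted p = 0.0168). In the knockdown BMF, another BH3-only gene, was also called, from 2.20 ± 0.295 to 3.07 ± 0.222 FPKM (SD, n = 3, limma adjusted p = 0.0110), which made 2 of 10 higher and 0 lower, against 9.35% and 8.08% of all genes. With 5-OH-TMT added BMF was at 3.23, 3.09 and 3.03 FPKM, near its knockdown mean, without being called against TNF-α. The call of BMF was lost without knockdown library 1 (limma adjusted p = 0.0534) and in a fit to the 2 groups alone (0.0570), and that of BBC3 against 5-OH-TMT without 5-OH-TMT library 1 or 2 or knockdown library 1 (limma adjusted p 0.0530 to 0.0746) and in such a fit (0.0600), while its other calls held in every fit that left out a library. The list's median log2 change was 0.072 with TNF-α and 0.035 in the knockdown.

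Of 13 genes of the apoptosome, the caspases, their inhibitors and the mitochondrial release, BIRC3, which encodes the inhibitor cIAP2, was the 1 called with TNF-α, higher, against 3.22% of all genes. Its relative BIRC2 had a log2 difference of 0.42 with an interval of 0.049 to 0.78 and did not pass (limma adjusted p = 0.253). BIRC3 went from 0.602 ± 0.204 FPKM in medium to 4.99 ± 0.354 with TNF-α (SD, n = 3; log2 fold change 2.89, limma adjusted p = 9.58e-06), 4.83 ± 1.26 with 5-OH-TMT added and 9.05 ± 1.94 in the knockdown. In the knockdown against TNF-α 1 of 13 was called higher and 3 lower, the siRNA target HTRA2 among these 3, against 9.35% and 8.08% of all genes. BIRC3 rose (log2 fold change 0.83). CYCS, the gene of cytochrome c, fell by 0.59 on the log2 scale and ENDOG, of a mitochondrial nuclease, fell by 0.62, beside HTRA2 itself, the target, at -0.98. The list's median was -0.0049, near that of all genes. CYCS was also lower with 5-OH-TMT added, without being called, at 25.3, 33.1 and 28.0 FPKM against 36.1, 41.9 and 38.5 with TNF-α. ENDOG was not, at 13.1 ± 0.542 FPKM with 5-OH-TMT added and 12.5 ± 2.10 with TNF-α. In the knockdown against TNF-α, BIRC3 missed the threshold without TNF-α library 1 or 2 or knockdown library 1 or 2 (limma adjusted p 0.0516 to 0.0757) or with no filter on low values (0.0513), and ENDOG without TNF-α library 2 or 3 (0.0626 to 0.0685). Against 5-OH-TMT, 1 of 13 was called higher in the knockdown and 2 lower, against 7.85% and 7.43% of all genes. BIRC3 was higher by 0.90 on the log2 scale (limma adjusted p = 0.0185), a call lost without 5-OH-TMT library 1 or 2 or knockdown library 2 (0.0710 to 0.0776) and in a fit to the 2 groups alone (0.0513). ENDOG had a log2 difference of -0.70 (limma adjusted p = 0.011), a call that held whichever library was left out. HTRA2, the target, was at -1.06.

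Of 11 genes of the death receptors that feed BID, 3 rose with TNF-α, against 3.22% of all genes. CFLAR, whose product holds caspase-8 back, rose by 0.69 on the log2 scale, and the TRAIL receptor genes TNFRSF10A and TNFRSF10B rose by 0.50 and 0.75. In the knockdown 5 of 11 were called higher than with TNF-α alone and 0 lower, against 9.35% and 8.08% of all genes. TNFSF10, which encodes the ligand TRAIL, changed most, at 0.490 to 0.699 FPKM in the TNF-α libraries and 2.75 to 3.03 in the knockdown (log2 fold change 2.14, limma adjusted p = 6.17e-06). CFLAR (0.97), CASP10 (0.89), TNFRSF10B (0.45) and FAS (0.35) were the others. Against 5-OH-TMT, 5 of 11 were called higher as well, against 7.85% of all genes, with TNFSF10 at 2.04. In the knockdown against TNF-α, FAS missed the threshold without any 1 TNF-α library or knockdown library 1 or 2 (limma adjusted p 0.0514 to 0.118), and also with no filter on low values, voom, the fit to 2 groups, the replicate number as a term or the rescaling outside the mitochondrial genome (0.0506 to 0.0589). TNFRSF10A missed it in the first comparison without medium library 1 or 3 or TNF-α library 1 or 2 (0.0746 to 0.109), with no filter (0.0523), in the fit to 2 groups (0.109) and without the trend (0.0619). The list's median log2 change was 0.26 with TNF-α and 0.24 in the knockdown. Of 5 genes that control the turnover of MCL1 protein, USP9X, a deubiquitinase, was at 6.85 ± 0.679 FPKM in the knockdown against 5.36 ± 0.333 with TNF-α (SD, n = 3; limma adjusted p = 0.0430). It was the 1 of 5 called, against 9.35% of all genes higher and 8.08% lower. This call was lost without any 1 TNF-α library or knockdown library 1 or 2 (limma adjusted p 0.0612 to 0.144). Against 5-OH-TMT, USP9X was again the 1 called, higher by 0.41 on the log2 scale (limma adjusted p = 0.0238), against 7.85% of all genes. That call was lost without 5-OH-TMT library 1 or 2 or knockdown library 1 or 2 (limma adjusted p 0.0642 to 0.0984) and in the fit to 2 groups (0.071). With 5-OH-TMT against TNF-α, limma called 0 genes on all 4 lists, against 0.0332% of all genes higher and 0.00553% lower.

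**Figure D4:**
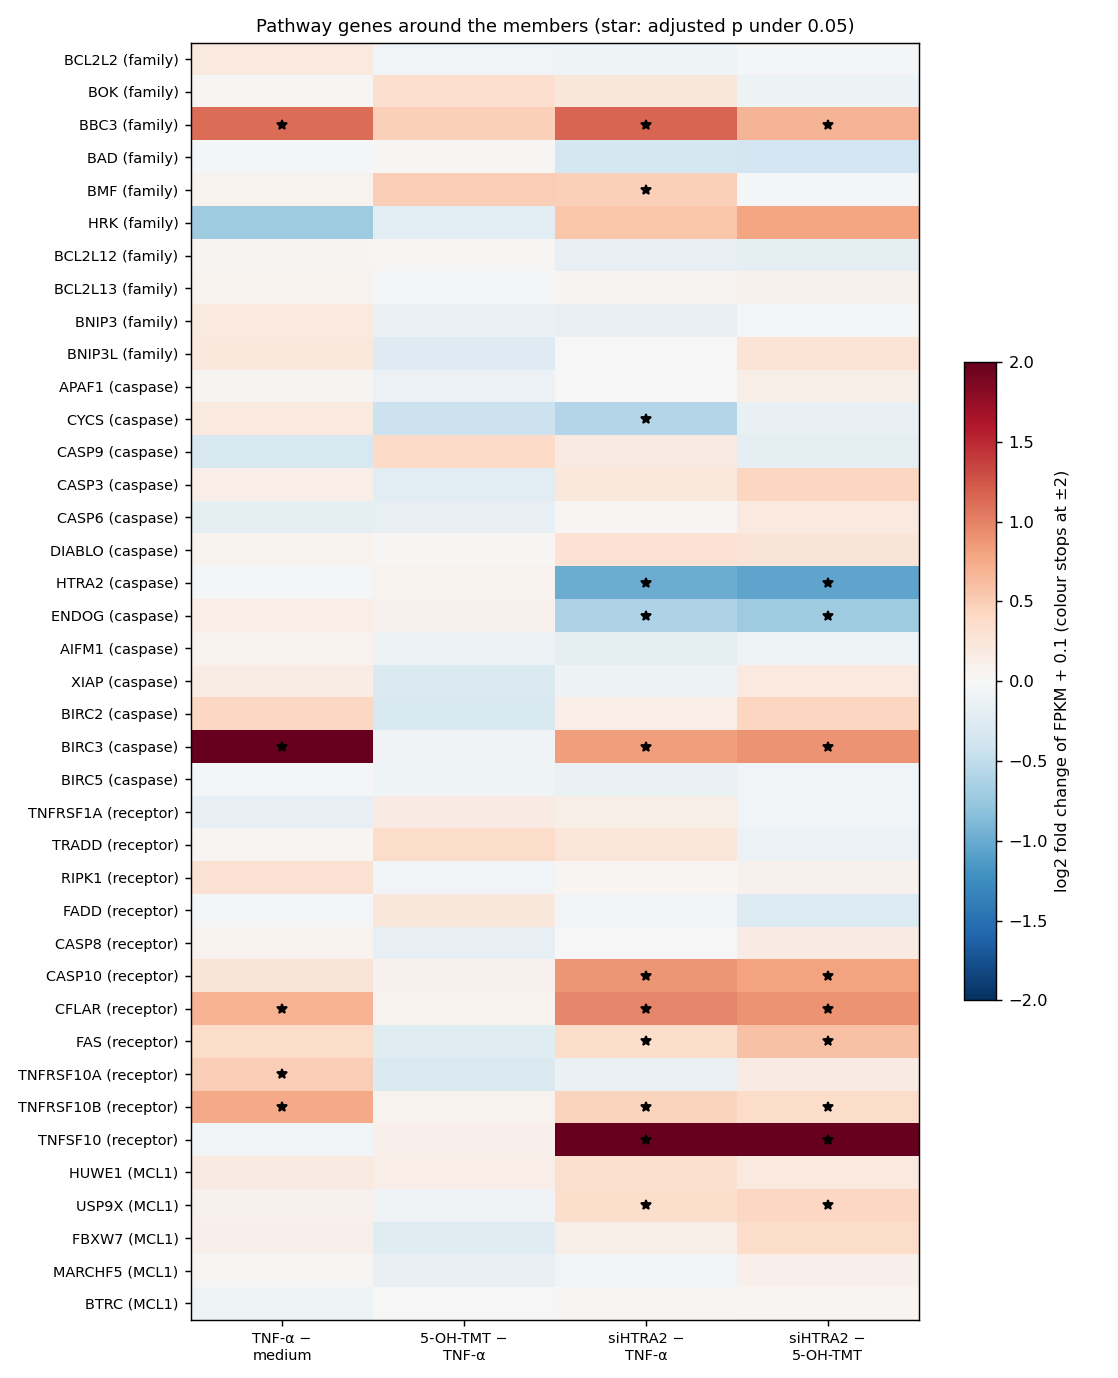
Log2 fold change of FPKM + 0.1 as colour for the 39 tested genes of the 4 lists (rows) in the 4 comparisons (columns), with stars for an adjusted p under 0.05 in limma. The column of 5-OH-TMT against TNF-α, where 0.0332% of all genes were called higher and 0.00553% lower, holds no star. BBC3, BIRC3, CFLAR and TNFRSF10B carry stars in the other 3 columns.

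BCL2A1 was the member with a called log2 change of at least 1, and the genes with the most similar profile were therefore looked up for it. Over the 12 libraries and 11185 genes with a mean of at least 1 FPKM, the smallest root mean square differences of the centred log2 profiles were 0.48 for GBP4, a gene of an interferon-induced GTPase, 0.50 for WNT4 and 0.52 for PLAU, against 1.67 for the spread of BCL2A1 around its own mean. PLAU, which encodes urokinase, was at 11.8 to 13.7 FPKM in medium, 52.5 to 59.2 after TNF-α, 57.7 to 80.2 with 5-OH-TMT added and 196 to 203 in the knockdown. GBP4 was at 0.0865 to 0.180 FPKM in medium, 0.471 to 0.722 after TNF-α, 0.698 to 1.14 with 5-OH-TMT added and 4.71 to 5.81 in the knockdown. It reached the mean of 1 FPKM needed for this lookup through the knockdown libraries, so its place here describes it and supports nothing.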

How the data were processed

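RNA of NCM460 cells was sequenced from poly(A) libraries (12 libraries, 3 per group). The authors deposited FPKM of each gene in every library beside the gene lengths, and the submitters' processing notes name CASAVA 1.8, HISAT2 2.0.4, HTSeq 0.9.1 and hg38. The scaling and the strandedness of the counting are not given in the sources used here. Whole reads were recovered from the FPKM steps (100% of values within 0.05 of a whole number), and counting error alone is covered by the floor of 3 reads. Coordinates were those of GENCODE 29, which matched 99.92% of the table, and promoter windows came from RefSeq (GRCh38.p14). MARCHF5 was matched by its gene identifier.

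With limma 3.58.1 in R 4.3.3, group means were fitted to log2(FPKM + 0.1) of the 18079 genes averaging 0.1 FPKM or more, with a trended eBayes, two-sided tests and Benjamini-Hochberg adjustment over all of them. BCL2, below the filter, was taken from a fit of 31951 genes. The fit was tested on simulated data. Members and lists were chosen with earlier results of these data known, and 1 gene of the caspase list and 1 marker are not reported here. All 10 members were named, as were list genes called in any comparison, and for a member called with a log2 change of at least 1 the 3 genes of nearest profile among those averaging 1 FPKM or more. Alternatives were other pseudocounts, filters, scalings and fits, voom, the replicate number as a term, and leaving out each library. Same-numbered libraries of different groups did not deviate together (r -0.366 to 0.151), so the numbers were not taken as pairs.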

Additional observations from a re-analysis of the deposited data

How the results depend on the processing

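Of the single-member changes under the alternatives, 565 kept their direction and their side of the threshold, 27 no longer passed, 7 passed newly and 9 turned direction. Of those of the list genes called, 409 kept both, 50 no longer passed and 0 turned. Those that turned were small and never called: without 1 library the log2 change with TNF-α ranged from -0.0921 to 0.0147 for BCL2L1 and from -0.131 to 0.0212 for BAK1, and between knockdown and 5-OH-TMT it ranged from -0.00924 to 0.181 for BAK1 and from -0.0497 to 0.128 for PMAIP1. With the replicate number as a block, members called numbered 3 with TNF-α, where BID was lost (limma adjusted p = 0.0524), 0 with 5-OH-TMT, 5 in the knockdown and 4 between the 2 treatments. Same-numbered libraries did not deviate together, and whether they were processed together is not given in the sources used here. In the knockdown, BID, not called in the reported fit, passed with a filter at 1 FPKM, quantile normalization, voom, the fit to 2 groups and the rescaling outside the mitochondrial genome (limma adjusted p 0.0133 to 0.0415), and BCL2L11 passed without the trend (0.0415). The cause of the other shifts was not tested.

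Leaving out 1 library gave 2 to 3 members called with TNF-α and 3 to 5 in the knockdown, and a fit to only the 2 groups gave 1 with TNF-α. All genes called with TNF-α numbered 392 in that fit against 742. For 5-OH-TMT the 7 genes called became 3 with a pseudocount of 1, 127 with a filter at 1 FPKM, 4 after quantile normalization, 236 with voom, 911 in the fit to 2 groups, 1 without the trend, 1 with the block, 18 after rescaling to an equal sum outside the mitochondrial genome (a setting chosen after seeing the data), and 1 to 5 without 1 library. In the knockdown 2015 to 3337 genes were called without 1 library against 3152, and between knockdown and 5-OH-TMT 1314 to 2706 against 2762. For the last comparison, rescaling outside the mitochondrial genome moved the share of calls that were higher from 51.4% to 63.3%.

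On the lists, the further family members called in the knockdown numbered 1 in the fit to 2 groups and 1 to 3 without 1 library, and between knockdown and 5-OH-TMT they numbered 2 with a filter at 1 FPKM, quantile normalization, no trend or the rescaling outside the mitochondrial genome, 3 with voom, 0 in the fit to 2 groups and 0 to 2 without 1 library. The caspase list gave 2 to 4 in the knockdown without 1 library, with 2 left without TNF-α library 2. USP9X was the 1 gene called of the MCL1 turnover list in the knockdown, where the count was 0 with no filter, quantile normalization, the fit to 2 groups, no trend, the replicate block or the rescaling, 2 with voom and 0 to 1 without 1 library. Between knockdown and 5-OH-TMT it was 2 with voom, 0 in the fit to 2 groups and 0 to 1 without 1 library, and with TNF-α 0 to 1 without 1 library.

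BCL2A1 rested on 0 to 24 reads per library in medium and with TNF-α, and BCL2 on 12 to 45 reads. The 95% intervals of the log2 change of BCL2 lay within -0.66 and 0.55 in all 4 comparisons, on a scale where its group means were below the pseudocount of 0.1, which understates fold changes.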
